A study of Mus musculus with 12 samples.

Results

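Mitochondrial ribosomal protein genes encode the protein part of the mitoribosome, the ribosome inside mitochondria. They were taken as the genes whose symbol starts with Mrpl (large subunit) or Mrps (small subunit) followed by a digit, where a row of the array table carried that symbol and no other. This gave 68 genes of the 14807 with such a row; RefSeq lists 78 protein-coding mouse genes of that naming. Mrpl18, Mrpl23, Mrpl27, Mrpl42, Mrpl44, Mrps21 and Mrps33 had no row under their symbol here, and Mrpl53, Mrps22 and Mrps6 shared a row with another gene, so these were not analysed. Of the 68, only Mrpl48 had more than 1 row, and its brighter row was used.

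The cells were dendritic cells grown from C57BL/6 mouse bone marrow for 10 days with FLT3L at 100 ng/ml, and sorted as CD24-high, CD11b-low and B220-negative CD8α+-like cells, the culture counterpart of the dendritic cells that take up dead cells and cross-present their antigens. Cells were wild type (WT) or homozygous for the Clec9a gfp allele, which lacks DNGR-1, a receptor for actin exposed on dead cells. They were untreated (0 h) or kept for 5 h with dead cells at a ratio of 1:2. The dead cells had been given UVC at 240 mJ/cm2 and held in culture for 24 h. Each of the 4 groups had 3 arrays. Because the untreated cells were taken at 0 h, the effect of the dead cells and that of 5 h in culture cannot be told apart, and the sources used here do not say which cell the dead cells were.

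The mammalian mitoribosome translates the few messenger RNAs of mitochondrial DNA, all of which encode core subunits of the respiratory chain and ATP synthase. Its RNAs are made in the mitochondrion, whereas every one of its proteins is encoded in the nucleus, made on cytosolic ribosomes and imported. Part of these proteins descend from bacterial ribosomal proteins and part are found only in mitochondria. In dendritic cells, as in other immune cells, the balance between respiration and glycolysis is known to shift on activation.

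The values are linear intensities, and log2 values are of intensity + 16, so changes of dim genes are understated. The median intensity of an array was 93.6 to 101 for the 6 untreated arrays and 77.9 to 85.9 for the 6 dead-cell arrays, and the upper quartile was 396 to 437 and 231 to 259, so bright rows as a whole were lower with dead cells. For this reason the main counts and medians are also given after quantile normalization, and values given without it are on the deposited scale. Quantile normalization forces all arrays to one distribution. It raised the median change of all rows by 0.14. For the 11619 rows brighter than the median row, it moved the median change from -0.41 to 0.03. Clec9a read 2581 to 2648 in untreated WT cells, 1372 to 1496 in WT cells with dead cells and 0.00864 to 4.16 on the 6 gfp/gfp arrays, as their labels state. Other markers of these cells were bright in untreated cells, with group means of 3336 (WT) and 3329 (gfp/gfp) for the chemokine receptor Xcr1, and 8822 and 8552 for the transcription factor Irf8.

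With dead cells, 60 of the 68 genes fell, 3 rose and 5 did not pass the test (limma, adjusted p under 0.05, averaged over the 2 genotypes). Over all 23238 rows, 34.6% fell and 22.1% rose, and among the 11619 rows that are brighter than the median row, to which 63 of the 68 genes belong, 55.5% fell and 25.5% rose. The median log2 change of the 68 genes was -1.49, with quartiles of -1.80 and -0.94 and a range from -2.65 to 0.31. The median was -0.03 over all rows and -0.41 over the 11619 brighter rows. As linear means, the median gene was 3.05-fold brighter in untreated cells. A fall of at least 2-fold that passed the test was found for 48 genes, and for 19.2% of all rows. In a sorted but bulk sample, fewer cells of a type and less RNA per cell cannot be told apart.

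After quantile normalization 54 of the 68 genes fell and 7 rose, against 26.9% and 34.3% of all rows and 41.6% and 42.9% of the 11619 brighter rows. The median change was then -0.89, the median of all rows 0.11 and that of the 11619 brighter rows 0.03. Falls of at least 2-fold numbered 31, against 12.7% of rows. The 54 genes that fell after normalization had all fallen on the deposited scale too. Mrpl30 was the 1 gene called in opposite directions, lower as deposited at -0.31 ± 0.09 (adjusted p = 0.0128) and higher after normalization at 0.39 (adjusted p = 0.00518). Only Mrpl48 and Mrps36 were called on neither scale.

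The median log2 level of the 68 genes ranged over the untreated arrays from 8.64 to 8.83 and over those with dead cells from 7.10 to 7.39, so the ranges lie far apart. Gene by gene, all 6 dead-cell arrays were below all 6 untreated arrays for 58 of the 68, against 29.6% of all rows. Only Mrpl39 had all 6 dead-cell arrays above all 6 untreated ones, against 12.7% of rows. The changes spread over the genes more widely than the error of a single change: the SD of the 68 log2 changes was 0.72, and the median SE of a change was 0.09. Across the 68 genes, the Spearman rho between the untreated level and the change was -0.29, and both come from the same arrays.

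**Figure D1:**
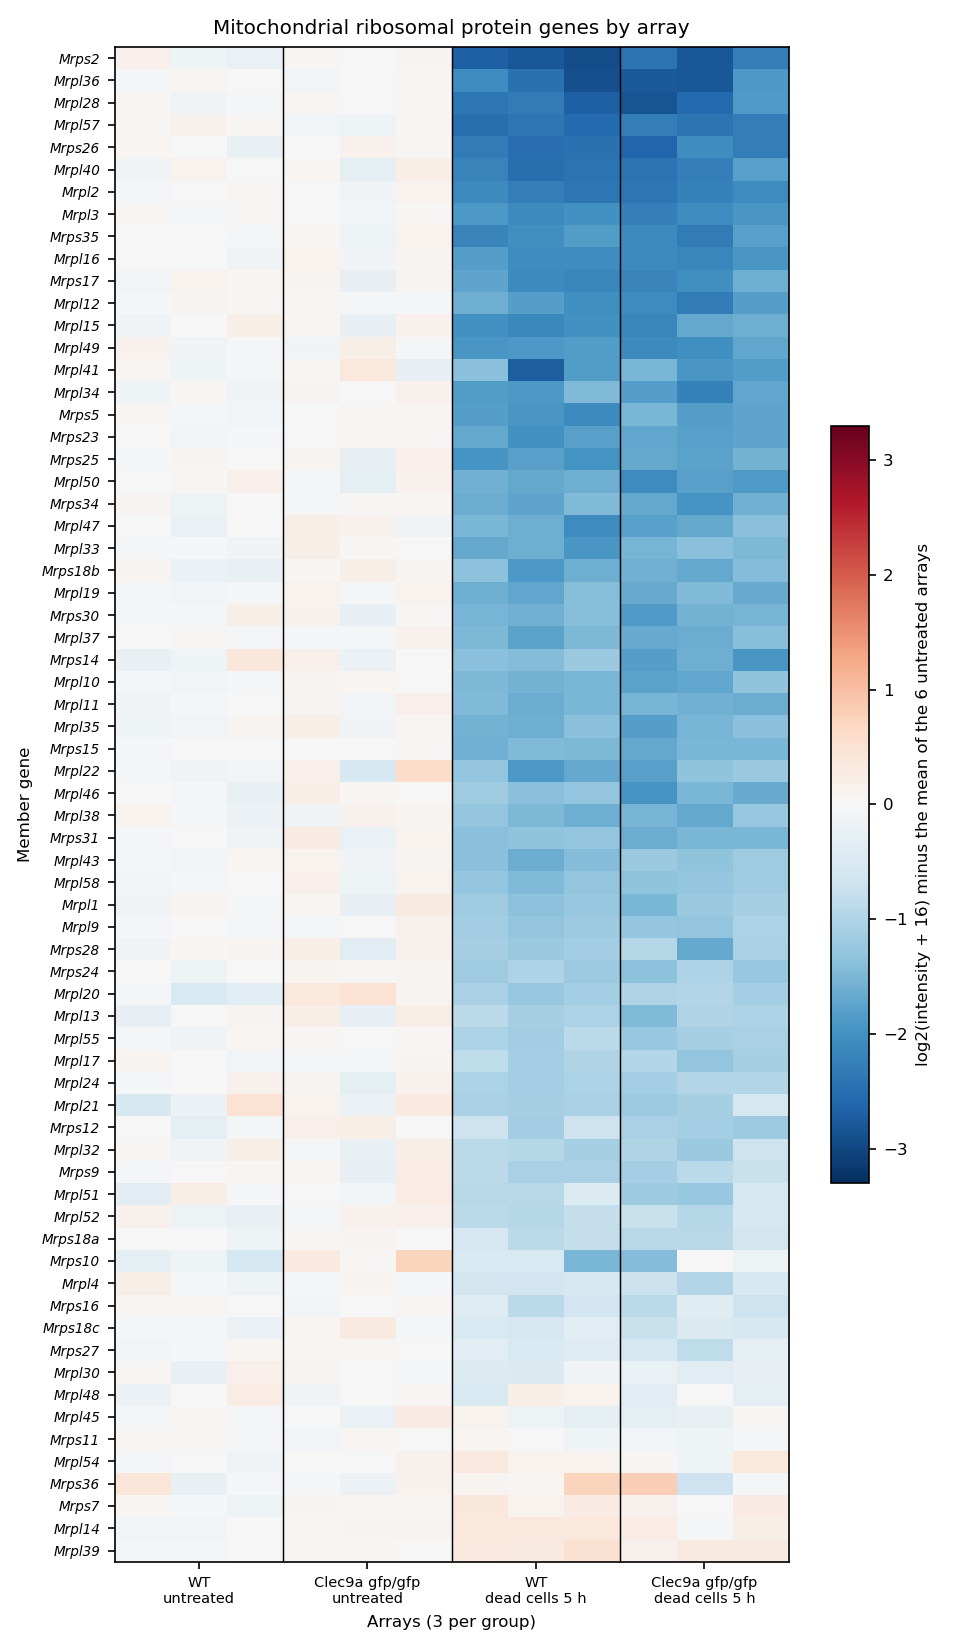
Log2(intensity + 16) of each of the 68 genes (rows, ordered by change) on each of the 12 arrays (columns, 3 per group), minus that gene's mean over the 6 untreated arrays; blue is lower and red is higher. The untreated columns are near white, the dead-cell columns are blue for 60 genes that fell, and the bottom rows, from Mrpl54 to Mrpl39, are pale or red.

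Promoter sequences are shown because 3 motifs are known from promoters of nuclear genes for mitochondrial proteins: the palindromic site of the regulator NRF1, the core site of ETS factors such as GABP, and the site of YY1. RefSeq promoters (GRCm38.p6) from 250 bases before to 50 after the start were found for 59 of the 68 genes, and each motif was searched for on both strands. The NRF1-type letters GCGCANGCGC occurred in 11 genes (18.64%, against 5.19% of all 27025 genes), the ETS-type letters CGGAAG in 33 (55.93% against 18.78%) and the YY1-type letters AAGATGG in 12 (20.34% against 7.28%). A promoter may hold more than 1 of these motifs.

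Of the NRF1-type matches, 3 are shown, from 2 genes that fell and from the only gene above its untreated range on all arrays. The genes were picked after their values were seen. The printed strand is the strand of the gene, and capitals mark the motif or its reverse complement. For Mrpl12 the capitals are the reverse complement, so its motif reads on the other strand.
Mrpl57: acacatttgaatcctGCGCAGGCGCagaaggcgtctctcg
Mrpl12: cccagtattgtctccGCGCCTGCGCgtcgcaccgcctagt
Mrpl39: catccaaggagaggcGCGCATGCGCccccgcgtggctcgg
They lie at chr14:57826167-57826206 on the plus strand, chr11:120484541-120484580 on the plus strand and chr16:84735345-84735384 on the minus strand, 33 to 72, 57 to 96 and 101 to 140 bases before the start of each gene. With a match to this 10-letter motif upstream on either strand, Mrpl57 changed by -2.40 ± 0.06, Mrpl12 by -1.94 ± 0.10 and Mrpl39 by 0.31 ± 0.06.

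The ETS-type matches are shown for 2 genes of the catalytic centre and for the 3 genes of the S18 family (capitals mark CGGAAG or its reverse complement CTTCCG).
Mrpl3: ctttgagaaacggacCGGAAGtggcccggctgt
Mrpl16: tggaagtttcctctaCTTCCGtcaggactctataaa
Mrps18a: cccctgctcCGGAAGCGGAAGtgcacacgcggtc
Mrps18b: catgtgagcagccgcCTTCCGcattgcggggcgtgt
Mrps18c: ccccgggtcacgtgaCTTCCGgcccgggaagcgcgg
Their positions are chr9:105053235-105053267 on the plus strand, chr19:11770317-11770352 on the plus strand, chr17:46110970-46111003 on the plus strand, chr17:35916441-35916476 on the minus strand and chr5:100798588-100798623 on the plus strand. Mrps18a holds the motif in 2 adjoining copies, the other 4 in 1 copy within the printed stretch.

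Of the 33 genes with an ETS-type match 32 fell and 0 rose, and of the 26 without one 20 fell and 3 rose, with median changes of -1.36 and -1.54. Of the 11 with an NRF1-type match 8 fell and 2 rose (median -0.97), and without one 44 of 48 fell and 1 rose (median -1.54). With a YY1-type match 10 of 12 fell and 1 rose (median -0.98). These are descriptions of letters in a window, and no test was made of them. The counts are on the deposited scale only. On that scale 34.6% of all rows fell and 22.1% rose, as did 55.5% and 25.5% of the 11619 brighter rows.

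Among large subunit proteins, Mrpl2, Mrpl3 and Mrpl16 are the homologues of bacterial proteins that surround the peptidyl transferase centre, where the peptide bond is formed. All 3 fell on both scales. Mrpl3 read 958, 901 and 958 on the untreated WT arrays, 922, 866 and 959 on the untreated gfp/gfp arrays, 235, 202 and 219 on the WT arrays with dead cells and 180.0, 208 and 233 on the gfp/gfp arrays with dead cells. The lowest untreated value is above the highest dead-cell value by a wide gap, and the linear means differ 4.35-fold. The log2 change was -2.05 ± 0.07 (adjusted p = 1.06e-09), or -1.47 after quantile normalization. The untreated intensities of Mrpl2 were 585, 592 and 613 in WT and 603, 546 and 646 in gfp/gfp cells, and those with dead cells were 128, 110.0 and 102 in WT and 102, 114 and 129 in gfp/gfp cells. Its groups do not overlap either, and its change was -2.24 ± 0.08 (adjusted p = 8.57e-10). Mrpl16 changed by -2.01 ± 0.08 (adjusted p = 1.43e-09), from group means of 514 ± 25.9 (WT) and 539.8 ± 47.4 (gfp/gfp) to 123 ± 12.4 and 114 ± 12.2 (SD, n = 3 each).

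Mrpl10, Mrpl11 and Mrpl12 form the stalk to which translation factors bind, and Mrpl1 belongs to the stalk on the other side of the large subunit, near the site where spent tRNA leaves. The 4 stalk genes fell on both scales. Mrpl12 read 510.0, 561 and 544 on the untreated WT arrays, 542, 511 and 507 on the untreated gfp/gfp arrays, 163, 139.7 and 118 on the WT arrays with dead cells and 113, 94.5 and 138 on the gfp/gfp arrays with dead cells. Every dead-cell array is under every untreated array, 4.14-fold in the means. Its log2 change was -1.94 ± 0.10 (adjusted p = 1.12e-08), and -1.35 after quantile normalization. Mrpl10 and Mrpl11, its neighbours on the stalk, had changes of -1.56 ± 0.08 and -1.56 ± 0.07, and Mrpl1 changed by -1.27 ± 0.11. After quantile normalization the 3 values were -0.89, -0.89 and -0.60.

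Of the 5 genes taken as encoding proteins along and around the tunnel through which the new peptide leaves, Mrpl22, Mrpl24 and Mrps30 fell, Mrpl39 rose and Mrpl45 did not pass the test as deposited. Mrpl22 and Mrpl24 have bacterial counterparts there, and Mrpl39 and Mrpl45 belong to mitochondria, where Mrpl45 ties the ribosome to the inner membrane. For Mrpl24, the WT arrays read 1020.3, 1078 and 1181 untreated and 514, 485 and 508 with dead cells, and the gfp/gfp arrays 1138, 867 and 1185 and 482, 537 and 546. These groups do not overlap, and Mrpl24 fell by 1.04 ± 0.09 (adjusted p = 7.69e-07). Mrpl22, whose row is dim, read 69.5 to 169 untreated and 17.1 to 36.8 with dead cells, a change of -1.53 ± 0.18 (adjusted p = 2.25e-05). The untreated intensities of Mrpl45 were 387, 424 and 392 in WT and 398, 344 and 489 in gfp/gfp cells, and those with dead cells were 442, 357 and 318 in WT and 324, 336 and 415 in gfp/gfp cells. Here the groups overlap and the change of -0.15 ± 0.11 (adjusted p = 0.28) did not pass the test, whereas after quantile normalization it was 0.53 (adjusted p = 2.33e-04). Mrps30, a large subunit protein with a small subunit name, changed by -1.57 ± 0.09 (adjusted p = 5.26e-08).

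Mrpl39 rose. Mrpl39 read 840.5, 827 and 854 on the untreated WT arrays, 877, 906 and 857 on the untreated gfp/gfp arrays, 1071, 1056 and 1215 on the WT arrays with dead cells and 959, 1064 and 1055 on the gfp/gfp arrays with dead cells. All 6 dead-cell arrays lie above all 6 untreated arrays, and the change was 0.31 ± 0.06 (adjusted p = 9.86e-04) as deposited and 0.70 (adjusted p = 1.56e-06) after quantile normalization. Its promoter is the third of the NRF1-type stretches shown above.

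The largest falls in the large subunit were found for Mrpl36, Mrpl28, Mrpl57 and Mrpl40. Mrpl36 and Mrpl28 have bacterial homologues, and Mrpl36 is a small zinc-binding protein in bacteria. Mrpl57 and Mrpl40 are found only in mitochondria. The untreated intensities of Mrpl57 were 698, 752 and 697 in WT and 634, 604 and 705 in gfp/gfp cells, and those with dead cells were 108, 117 and 103 in WT and 128, 116 and 127 in gfp/gfp cells. No group of dead-cell arrays overlaps an untreated group, and the change of -2.40 ± 0.06 had the smallest adjusted p of the 68 genes, 2.29e-10. For Mrpl36, the WT arrays read 555, 591 and 573 untreated and 126, 91.1 and 62.1 with dead cells, and the gfp/gfp arrays 537, 576 and 601 and 69.9, 68.2 and 142. Its dead-cell arrays spread more, from 62.1 to 142, and stay under all untreated ones, with a change of -2.48 ± 0.18 (adjusted p = 2.38e-07). Mrpl28 changed by -2.44 ± 0.15 (adjusted p = 5.04e-08) and Mrpl40 by -2.27 ± 0.13 (adjusted p = 3.49e-08).

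Among small subunit genes, Mrps2, a homologue of bacterial S2, had the largest fall of the 68. The untreated intensities of Mrps2 were 450.3, 357 and 337 in WT and 418, 401 and 425 in gfp/gfp cells, and those with dead cells were 47.9, 43.7 and 38.3 in WT and 60.6, 43.1 and 69.2 in gfp/gfp cells. The untreated means are 7.89-fold higher than the dead-cell means and no arrays overlap. The change was -2.65 ± 0.10 (adjusted p = 1.92e-09), and -2.25 after quantile normalization. Mrps26, known only from mitochondria, also fell. For Mrps26, the WT arrays read 1129.9, 1067 and 914 untreated and 207, 175 and 182 with dead cells, and the gfp/gfp arrays 1085, 1196 and 1113 and 164, 251 and 211. All dead-cell values are below the lowest untreated value, with a change of -2.37 ± 0.10 (adjusted p = 3.42e-09). Mrps15, homologous to bacterial S15, fell by 1.54 ± 0.06, with means of 1358 ± 13.1 and 1414 ± 14.9 untreated (WT, gfp/gfp) and 476 ± 22.3 and 459 ± 35.1 with dead cells (SD, n = 3 each).

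Mrps12, the homologue of bacterial S12 at the decoding centre, where codon and anticodon are matched, also fell. Mrps12 read 148, 118 and 139.8 on the untreated WT arrays, 167, 169.7 and 146 on the untreated gfp/gfp arrays, 84.9, 57.6 and 85.0 on the WT arrays with dead cells and 61.6, 59.0 and 54.5 on the gfp/gfp arrays with dead cells. The arrays do not overlap between conditions, and the change was -0.99 ± 0.10 (adjusted p = 3.39e-06). Mrps7, whose bacterial homologue S7 starts the assembly of the head of the small subunit, was called higher. The untreated intensities of Mrps7 were 689, 642 and 599 in WT and 715, 705 and 692 in gfp/gfp cells, and those with dead cells were 882, 736 and 808 in WT and 745, 666 and 809 in gfp/gfp cells. The ranges overlap: the lowest dead-cell array is below several untreated arrays. The change was 0.19 ± 0.07 (adjusted p = 0.0386) as deposited and 0.69 (adjusted p = 1.83e-06) after quantile normalization, and leaving out any 1 of 9 of the 12 arrays (all but WT untreated 1 and dead-cell replicate 2 of each genotype) took the deposited adjusted p to 0.05 or above, up to 0.0895. Mrps10 was called lower at -0.69 ± 0.27 (adjusted p = 0.0487), with the largest SE of the 68, and leaving out any 1 of 7 arrays (the 3 untreated WT arrays, WT dead cells 3, gfp/gfp untreated 1 and 3, and gfp/gfp dead cells 1) ended that call, with adjusted p up to 0.108. Mrps10 did not pass after quantile normalization.

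The S18 family has 3 members in mammals, of which Mrps18b and Mrps18c sit in the small subunit and Mrps18a, in spite of its name, in the large one. All 3 fell as deposited. For Mrps18b, the WT arrays read 1075, 890.3 and 848 untreated and 387, 262 and 321 with dead cells, and the gfp/gfp arrays 1056, 1164 and 1082 and 327, 304 and 364. Its arrays separate without overlap, with a change of -1.59 ± 0.10 (adjusted p = 8.47e-08) and -1.05 after quantile normalization. The untreated intensities of Mrps18c were 1925, 1912 and 1749.7 in WT and 2093, 2483 and 1971 in gfp/gfp cells, and those with dead cells were 1417, 1355 and 1564 in WT and 1199.5, 1445 and 1396 in gfp/gfp cells. Mrps18c also separates, and its change was -0.53 ± 0.08 (adjusted p = 1.58e-04), and -0.35 (adjusted p = 0.00299) after quantile normalization. Mrps18a changed by -0.78 ± 0.08 (adjusted p = 7.79e-06) as deposited and by -0.16 (adjusted p = 0.0589) after quantile normalization, which did not pass. The 3 promoters each hold the ETS-type letters shown above.

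**Figure D2:**
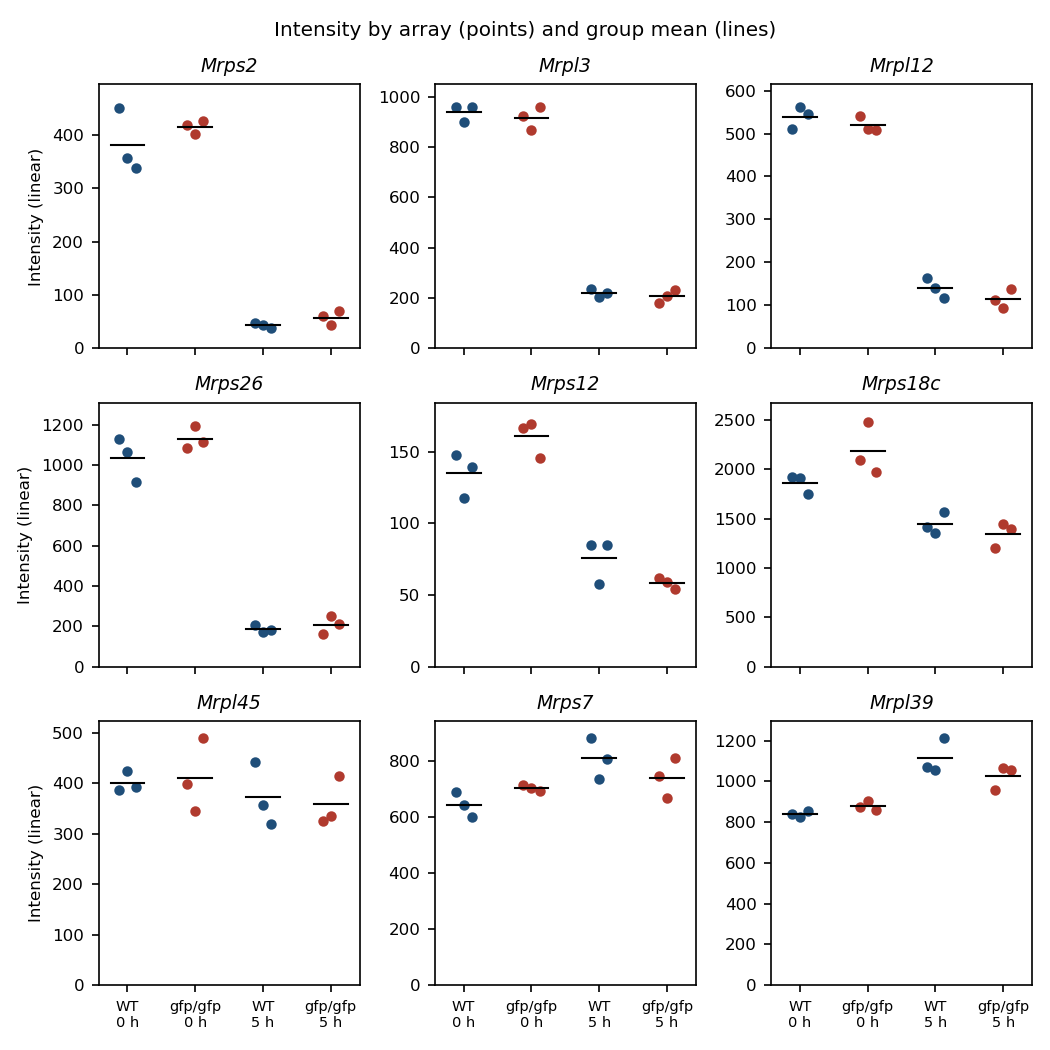
Linear intensity (vertical axis, from 0) on each array (points) with the group mean (line) for 9 of the genes, in WT (blue) and Clec9a gfp/gfp (red) cells untreated at 0 h and with dead cells at 5 h. Mrps2, Mrpl3, Mrpl12 and Mrps26 drop several-fold, Mrps12 and Mrps18c less, Mrpl45 overlaps between conditions, and Mrpl39 is higher with dead cells on all arrays.

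Beside Mrpl39 and Mrps7, Mrpl14 was the third gene called higher. It is the homologue of bacterial L14, which lies at the contact between the subunits. Mrpl14 read 216, 215 and 229 on the untreated WT arrays, 239, 247 and 248 on the untreated gfp/gfp arrays, 298, 301 and 298 on the WT arrays with dead cells and 279, 224 and 265 on the gfp/gfp arrays with dead cells. The 3 WT dead-cell arrays are above all untreated arrays, while gfp/gfp dead-cell replicate 2 is inside the untreated range. The averaged change was 0.24 ± 0.06 (adjusted p = 0.00738), and 0.89 (adjusted p = 5.99e-07) after quantile normalization. The genes that did not pass the test as deposited were Mrpl45, Mrpl48 (-0.15 ± 0.13), Mrpl54 (0.14 ± 0.09), Mrps11 (-0.05 ± 0.06) and Mrps36 (0.16 ± 0.23). After quantile normalization Mrpl45, Mrpl54 and Mrps11 were called higher, at 0.53, 0.81 and 0.61. Mrpl48 is dim, at 23.2 to 50.8 over the 12 arrays. The protein of Mrps36 is now assigned to the α-ketoglutarate dehydrogenase complex of the citric acid cycle and not to the ribosome.

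Mrpl21 and Mrpl51, also dim, fell by 1.02 ± 0.18 and 0.89 ± 0.15, and Mrpl52 by 0.81 ± 0.09. Mrpl20 (-1.09 ± 0.10), Mrpl33 (-1.60 ± 0.07), Mrpl46 (-1.49 ± 0.09) and Mrps14 (-1.57 ± 0.12) fell on both scales. The 30 further genes all fell, with log2 changes of -2.04 to -0.49 and with adjusted p of at most 4.49e-04. That all 30 fell follows from the naming rule. It took out the 8 highest changes, which include every gene that rose or did not pass. Of these, 27 fell after quantile normalization too, and Mrpl4, Mrps16 and Mrps27 did not pass there, at -0.07, 0.04 and 0.09 (these 3 are named after their values were seen).

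**Figure D3:**
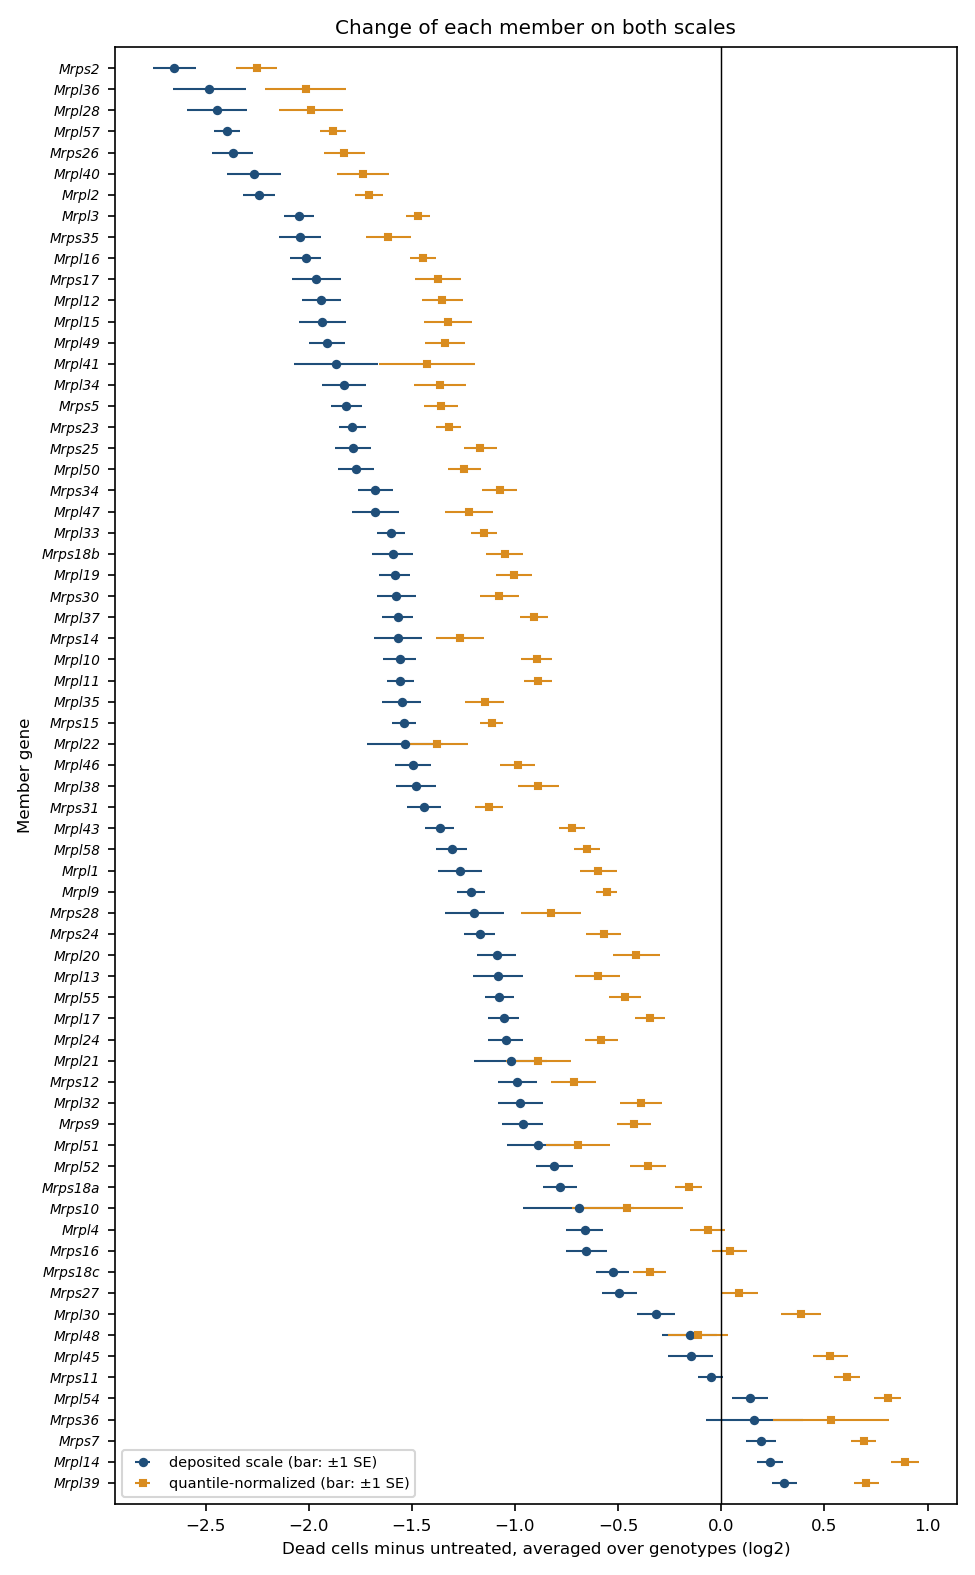
Change of each of the 68 genes with dead cells (horizontal axis, log2 of intensity + 16, averaged over genotypes; bars are 1 SE) on the deposited scale (circles) and after quantile normalization (squares). Every square lies to the right of its circle, most of both lie under 0, and Mrpl30 and the genes under it are near or above 0.

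By subunit, of 45 genes of the large subunit 40 fell and 2 rose, and of 22 of the small subunit 20 fell and 1 rose. Their median changes were -1.49 and -1.49 as deposited. After quantile normalization 37 and 17 fell, with medians of -0.89 and -1.06. Of all rows 34.6% fell and 22.1% rose as deposited. Of the 11619 brighter rows 55.5% fell and 25.5% rose, then 41.6% and 42.9% after quantile normalization. By origin, 26 of 27 large subunit genes with bacterial homologues fell (median -1.55), and 14 of 18 known only from mitochondria (median -1.42). In the small subunit these were 12 of 14 (median -1.08) and 8 of 8 (median -1.73). After quantile normalization the 4 classes had 24, 13, 10 and 7 genes that fell. The classes were not tested against each other, and the origin of each gene is textbook knowledge and not read from these data.

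The fall was found in both genotypes. In WT cells 58 of the 68 genes fell and 3 rose (median -1.38), against 31% and 14.5% of all rows. In gfp/gfp cells 58 fell and 0 rose (median -1.54), against 32.1% and 16.6% of all rows. The 58 genes that fell were the same genes in both. In gfp/gfp cells Mrpl39 was higher at an unadjusted p under 0.05, with 0.22 ± 0.08 (adjusted p = 0.0546). After quantile normalization 51 fell and 6 rose in WT (24.2% and 27% of rows), and 53 and 7 in gfp/gfp cells (24.3% and 28.5%). The 68 changes in WT and in gfp/gfp cells, which come from different arrays, had a Pearson r of 0.97 across genes.

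No gene of the 68 passed the test (limma, adjusted p under 0.05) between gfp/gfp and WT cells when untreated, with dead cells, or in the difference between their responses. Of all rows, 0.0301%, 0.0043% and 0.0043% passed. At an unadjusted p under 0.05 there were 1, 7 and 5 genes, against 4.49%, 5.63% and 4.29% of rows. The lowest adjusted p was 0.492, 0.754 and 0.999. The 95% interval of the difference was within 2-fold in either direction for 67, 66 and 64 of the 68.

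In untreated cells Mrpl20, a homologue of bacterial L20, had the smallest p. For Mrpl20, the WT arrays read 541, 387 and 441 untreated and 258, 225 and 249 with dead cells, and the gfp/gfp arrays 712, 780.4 and 600.0 and 274, 279 and 247. The untreated gfp/gfp arrays are above the untreated WT arrays, with a difference of 0.60 (gfp/gfp minus WT, 95% interval 0.30 to 0.90, unadjusted p = 0.00109, adjusted p = 0.492, limma), and with dead cells the 2 genotypes overlap. With dead cells the smallest p values were those of Mrpl46 (-0.42), Mrpl33 (0.28) and Mrps14 (-0.44, gfp/gfp minus WT), with adjusted p of 0.754 or above. In the difference between responses, Mrpl46, a mitochondria-specific protein of the large subunit, came first. Mrpl46 read 298, 290.2 and 251 on the untreated WT arrays, 345, 312 and 302 on the untreated gfp/gfp arrays, 123, 106 and 111 on the WT arrays with dead cells and 66.2, 93.8 and 83.5 on the gfp/gfp arrays with dead cells. It changed by -1.19 in WT and -1.80 in gfp/gfp cells, a difference of -0.60 (95% interval -0.98 to -0.23, unadjusted p = 0.00503, adjusted p = 0.999). For Mrpl14 the changes were 0.42 and 0.06, and for Mrps12 -0.73 and -1.25, also without passing after adjustment. The median difference between responses was -0.08, negative for 50 of the 68 genes. Over all rows the median was -0.02, with 12405 of 23238 negative, and over the brighter rows -0.04, with 6930 of 11619 negative. After quantile normalization the median of the 68 genes was -0.05.

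**Figure D4:**
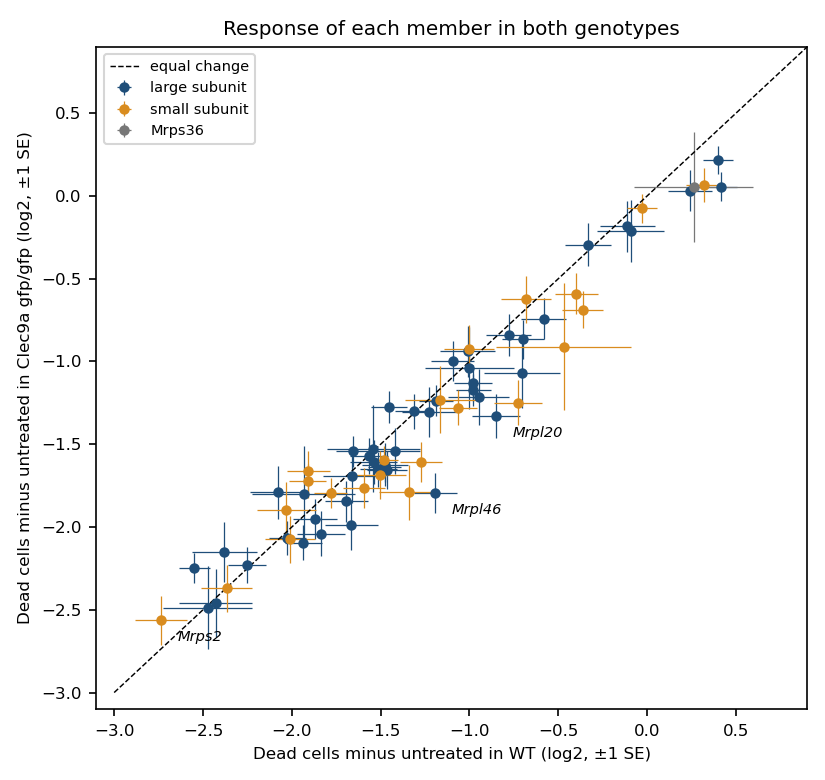
Log2 change of each gene with dead cells in WT cells (horizontal axis) against that in Clec9a gfp/gfp cells (vertical axis), with bars of 1 SE; the dashed line marks equal change, and colours mark the large subunit, the small subunit and Mrps36. The points follow the dashed line, and Mrpl46 and Mrpl20 lie below it.

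Most of the measured genes that work with the mitoribosome fell too. Beside the lists here and in the next paragraph, 34.6% of all rows fell and 22.1% rose. After quantile normalization these shares were 26.9% and 34.3%. Of the 11619 brighter rows 55.5% fell and 25.5% rose, then 41.6% and 42.9%. Of 3 measured mitoribosomal proteins under other symbols, 3 fell on both scales: Ptcd3 (-2.26 ± 0.10), Chchd1 (-1.18 ± 0.10) and Gadd45gip1 (-1.01 ± 0.11). Of 20 genes for assembly of the mitoribosome and modification of its RNA, 18 fell and 0 rose (median -1.44), with 15 and 4 after quantile normalization. They include Rbfa, a factor that matures the small subunit (-2.30 ± 0.09), Fastkd2, which acts on the large subunit RNA (-2.29 ± 0.08), and the GTPase Mtg1 (-1.91 ± 0.07). Of 18 mitochondrial tRNA synthetases and related enzymes 17 fell and 0 rose (median -1.60; 16 and 0 after quantile normalization), among them Yars2, which charges the tyrosine tRNA (-2.66 ± 0.10), Tars2, which charges the threonine tRNA (-2.05 ± 0.07), and Gatc, a subunit of the enzyme that makes glutamine tRNA (-2.64 ± 0.09).

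Of 14 mitochondrial translation factors 11 fell and 2 rose (median -1.27), with 10 and 2 after quantile normalization. The ribosome back-translocase Guf1 (-2.26 ± 0.10), the elongation factor Gfm1 (-1.91 ± 0.08) and the initiation factor Mtif2 (-1.90 ± 0.09) fell, whereas Gfm2, which splits the ribosome after termination, rose (0.23 ± 0.07), as did Pnpt1, a mitochondrial ribonuclease kept in the same list (0.29 ± 0.09); these 2 are named after their values were seen. Mitochondrial transcription and messenger RNA handling had 16 of 17 that fell and 0 that rose (median -0.79; 9 and 2 after quantile normalization), with the smallest p for the RNA-binding proteins Fastkd1 (-2.30 ± 0.06), Fastkd3 (-1.90 ± 0.09) and Lrpprc, which stabilises mitochondrial messenger RNAs (-1.68 ± 0.09). The 9 of 17 that fell after quantile normalization stand beside 41.6% of the 11619 brighter rows.

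The nuclear-encoded subunits of the respiratory chain assemble with the products of the mitoribosome. Of 49 measured genes 46 fell and 1 rose, with a median of -0.76, or 32 and 3 with a median of -0.46 after quantile normalization. The complex I genes Ndufs7 (-2.11 ± 0.08), Ndufs1 (-1.90 ± 0.07) and Ndufa8 (-1.69 ± 0.07) had the smallest p. For 14 cytosolic ribosomal proteins, 9 fell and 1 rose with a median of -0.35. After quantile normalization these were 6 and 1, with a median of -0.20. Of the 11619 brighter rows 55.5% fell and 25.5% rose with a median of -0.41, then 41.6% and 42.9% with a median of 0.03. This list was drawn from the symbols present among the rows, so it holds only the genes measured here. It includes Rpl10a (-0.90 ± 0.10), Rpl22 (-0.68 ± 0.07) and Rpl8 (-0.29 ± 0.06). Rps15 rose (0.66 ± 0.18), and Rpl31 was under 16 on all 12 arrays, so a change in it could hardly show (both named after their values were seen). The medians were not tested against that of the 68 genes, and the lists share arrays. Of 13 nuclear regulators of mitochondrial genes 7 fell and 3 rose as deposited, and 5 and 5 after quantile normalization, shares near those of the 11619 brighter rows (55.5% and 25.5%, then 41.6% and 42.9%). Myc, which drives ribosome and mitochondrial genes (-1.71 ± 0.10; -1.27 after quantile normalization), the nuclear receptor Esrra (-1.28 ± 0.08; -0.59) and Gabpb2, a subunit of GABP (-1.20 ± 0.09; -0.52), fell on both scales. Gabpb1, another GABP subunit (0.24 ± 0.07; 0.86), Mycn (0.55 ± 0.11; 0.75) and Max, the partner of Myc (0.22 ± 0.06; 0.45), rose on both, and Nrf1 (-0.03 ± 0.07; 0.66) and the coactivator Ppargc1b (0.07 ± 0.06; 0.48) rose after quantile normalization and did not pass as deposited. These 5 are named after their values were seen. The regulators are read here as transcripts, not as activity.

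**Figure D5:**
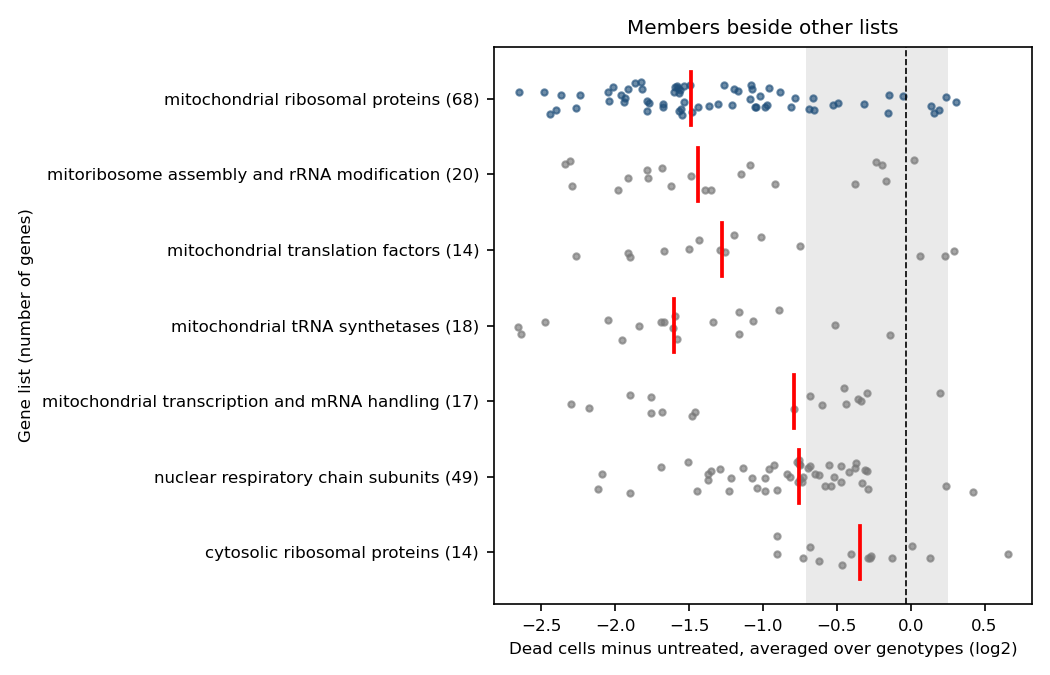
Log2 change with dead cells of single genes (points) in each list, with the list's median (red line); numbers in brackets are genes measured. The dashed line is the median of all rows (-0.03) and the grey band spans their quartiles. The medians run from -1.60 (tRNA synthetases) to -0.35 (cytosolic ribosomal proteins). The median of the 11619 brighter rows, not drawn, was -0.41.

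Markers of other cell types and of division were counted in the same comparison. Beside these counts, 34.6% of all rows fell and 22.1% rose, and 55.5% and 25.5% of the 11619 brighter rows. After quantile normalization the shares were 26.9% and 34.3%, and 41.6% and 42.9%. Of 17 cell cycle genes 17 fell on both scales (median -2.83), and their summed intensity was 18311 to 21311 and 18228 to 18672 untreated (WT, gfp/gfp) and 2398 to 2986 and 2411 to 2908 with dead cells. Of 13 monocyte and macrophage markers 11 fell and 1 rose, with sums of 12375 to 18466 and 14375 to 15445 untreated and 2699 to 3113 and 2631 to 3214 with dead cells. Of 10 stromal markers 7 fell and 0 rose (6887 to 8344 and 6338 to 9469, then 1327 to 2063 and 1338 to 1709), and of 11 neutrophil markers 7 and 0 (8096 to 13885 and 1553 to 20989, then 674 to 863 and 859 to 925). B cell markers had 4 and 0 of 5 (422 to 1247 and 559 to 1395, then 186 to 317 and 241 to 275). Plasmacytoid dendritic cell markers had 2 and 2 of 6, and their sums were higher with dead cells (1982 to 2275 and 2217 to 2562, then 3782 to 4000 and 4063 to 4090). For the 8 T or NK cell markers the counts were 1 and 2 (388 to 443 and 404 to 480, then 438 to 462 and 422 to 473). After quantile normalization the monocyte and macrophage markers had 9 that fell and 1 that rose, the stromal markers 7 and 1, and the neutrophil markers 6 and 3. The B cell markers then had 2 and 0, the plasmacytoid dendritic cell markers 1 and 3, and the T or NK cell markers 1 and 3. Of 11 markers of the sorted cells themselves 7 fell and 1 rose, and the counts were 7 and 3 after quantile normalization. Their sums were 49209.9 to 52106 and 44316 to 49389.7 untreated and 23651 to 25407 and 22699 to 22852 with dead cells. These markers include Clec9a, which read 2581 to 2648 in untreated WT cells, so the gfp/gfp sums lack its signal. No marker in these lists was under 16 on all 12 arrays, and their part in the fall of the mitoribosomal genes was not tested.

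The neutrophil sum varied within a group. On the 3 untreated gfp/gfp arrays it was 11547, 1553 and 20989. The median log2 level of the 68 mitoribosomal genes on these arrays was 8.76, 8.69 and 8.83, in the same order. On the 3 untreated WT arrays the sum was 13885, 10420 and 8096, and the median was 8.67, 8.64 and 8.69, in another order. A link between the sum and the level of these genes was not tested.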

How the data were processed

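RNA of 12 samples was biotin-labelled with a whole-transcript sense kit and hybridised to Affymetrix arrays, 1 per sample, per the labels' protocols. The authors deposited linear intensity values for 23238 rows; that the scale is linear was read from the values, and the mapping used mm8, per the submitters' processing notes. How the authors corrected background, summarised probes and normalized is not given in the sources used here. Arrays have no read depth; precision is limited by how many there are. The labels do not say whether the 3 samples of a group came from separate cultures or animals, so a p-value here reflects only how far these samples spread, which may be technical.

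Gene names came from the platform's annotation, updated through gene IDs to RefSeq, and 14939 rows had 1 symbol, 989 several and 7310 none. Values were taken as log2(intensity + 16) and fitted over all rows with limma 3.58.1 in R 4.3.3 (a mean for each of 4 groups, lmFit and eBayes), with Benjamini-Hochberg adjustment over all rows and a threshold of 0.05. The averaged change is the mean of the WT and gfp/gfp changes, and errors are limma's SE. The fit was tested on simulated data. Quantile normalization, a median shift, pseudocounts of 1 and 64, plain log2, filters on dim rows, another variance model, a replicate block and leaving out arrays were the alternatives. Figures were drawn with matplotlib 3.10.9.

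Members, gene lists, the pseudocount and the rule for named genes were chosen with earlier results of these data known. The rule named the 8 highest and 8 lowest changes, the 6 brightest and 4 dimmest rows, genes called higher on both scales or in opposite directions, the 3 smallest p in each genotype comparison, the S18 family and genes at named sites, and up to 3 genes of each other list. No scan date was used, so no batch was tested.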

Additional observations from a re-analysis of the deposited data

How the results depend on the processing

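As deposited, 60 of the 68 mitoribosomal genes fell and 3 rose with dead cells averaged over genotypes (58 and 3 in WT, 58 and 0 in gfp/gfp), and the median changes were -1.49, -1.38 and -1.54. The counts of genes that fell stayed within 1.5 times of these under every alternative run. After quantile normalization 7, 6 and 7 genes rose, with medians of -0.89, -0.85 and -0.96. With each array shifted to one median, 5 rose in the average and 3 in gfp/gfp cells, with medians of -1.26, -1.16 and -1.31. The medians were -1.61, -1.51 and -1.66 with a pseudocount of 1, -1.14, -1.08 and -1.21 with 64, and -1.62, -1.51 and -1.66 with plain log2. In gfp/gfp cells 1 gene rose with a pseudocount of 64, with plain log2, without the dimmest 25% of rows, with only the 11619 brighter rows and with trended and robust eBayes. Leaving out 1 array at a time gave 59 to 60, 55 to 59 and 58 to 59 genes that fell, 2 to 3, 2 to 3 and 0 to 1 that rose, and medians of -1.52 to -1.44, -1.42 to -1.33 and -1.61 to -1.50. No genotype comparison called a gene of the 68 (limma, adjusted p under 0.05) under any alternative run.

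The sign changed for Mrps11 (0.61), Mrpl45 (0.53) and Mrpl30 (0.39) after quantile normalization, for Mrps11 (0.18), Mrpl45 (0.080) and Mrpl48 (0.074) after the median shift, and for Mrps36 (-0.036) without gfp/gfp dead-cell replicate 1, against 0.34 without gfp/gfp dead-cell replicate 2; the cause was not tested. Of these only Mrpl30 had been called as deposited. Over 831 values for the 38 named genes, 799 kept direction and call, 23 lost the call, 2 gained it and 7 changed sign.

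Samples of different groups share replicate numbers, but same-numbered arrays correlated between -0.18 and 0.25 in their deviations, and 4 of 12 arrays correlated best with their own number, so the numbers were not taken as pairs. With the replicate block, 59, 59 and 58 genes fell and 3, 3 and 0 rose, with medians of -1.49, -1.38 and -1.54, no gene was called between genotypes, and Mrps10 lost its call (adjusted p = 0.0689).

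The arrays give no detection call here. None of the 68 genes was below 16 in intensity on any array, but the pseudocount still shrinks the changes of dim ones: for Mrpl22 the linear means differ 4.07-fold beside a log2 change of -1.53.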
